A study of Mus musculus with 24 samples.

Results

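Imprinted genes are transcribed from the copy inherited from the mother or from the copy inherited from the father. The genes described here are 10 imprinted genes that act on growth: H19, Meg3, Rian, Mirg, Dlk1, Peg3, Grb10, Mest, Plagl1 and Ndn. They were taken by symbol from a table of 52997 gene symbols. All 10 were in the table, and all 10 were among the 16263 genes that had enough counts to be tested.

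The cells came from hindlimbs of C57BL/6 mice that were 8 weeks old, and RNA was sequenced after sorting. The injured groups came from muscle taken 1 day after cardiotoxin, a snake venom toxin that kills muscle fibers, and were compared with the same populations of uninjured muscle. The populations were satellite cells, the muscle stem cells (MuSC; CD45-CD31-Sca1-Vcam1+), mesenchymal stromal cells (MSC; CD45-CD31-Sca1+PDGFRa+), endothelial cells (CD31+) and hematopoietic cells (CD45+). Each of the 8 groups held 3 libraries, which the labels call biological replicates without naming the mice, so a p-value here speaks only of variation among libraries, which may be technical.

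In the embryo, paternally expressed imprinted genes tend to promote growth and maternally expressed ones tend to restrain it. Many of them are shut down in most tissues after birth, and several stay on in adult stem cells, muscle satellite cells among them. The counts do not separate the maternal from the paternal copy, so imprinting itself was not measured. In RNA from sorted bulk cells, fewer expressing cells and less RNA per cell cannot be told apart.

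Library totals ran from 2301202 to 7649841 counts, and 3 counts, the limit that a count of 0 allows, equalled 0.389 to 1.02 CPM (counts scaled to library size by TMM). All 8 markers listed for each sorted population were highest in it, injured and uninjured. Stromal transcripts were uneven in injured MuSC: Pdgfra, the receptor used to sort MSC, had 0.298, 48.8 and 25.4 CPM in injured MuSC and 0.194, 0.339 and 0 CPM in uninjured MuSC. Of the 8 stromal markers 3 rose (Pdgfra, Lum and Smoc2) and 2 fell (Dpt and Gsn) in injured MuSC, with a median log2 fold change of 1.63, and Dcn, another of them, had 16.7, 354 and 256 CPM in injured and 26.9, 2.37 and 67.5 CPM in uninjured MuSC. Their sum, carried by Gsn, Col3a1 and Dpt in uninjured MuSC, was 1944 to 2758 CPM in injured and 4649 to 5364 CPM in uninjured MuSC. Injured CD45+ replicate 3 stood apart in the same way, with 0, 0 and 6.31 CPM of Pdgfra and 1.26, 0 and 114 CPM of Dcn in the injured CD45+ libraries, against 1.42, 0.578 and 0.859 and 10.4, 13.02 and 8.30 CPM in the uninjured ones. Tenocyte markers summed to 105 to 198 CPM in injured and 3.39 to 273 CPM in uninjured MuSC. Pericyte and smooth muscle markers summed to 2200 to 3277 CPM in injured and 2501 to 3339 CPM in uninjured MuSC. In CD31+ cells they summed to 339 to 532 CPM in injured and 604 to 851 CPM in uninjured libraries. Of these 8 markers, Notch3, Acta2 and Des were highest in MuSC and Rgs5 and Myh11 in CD31+ cells, injured and uninjured. The hematopoietic sum was 17.9 to 249 CPM in injured and 8.50 to 11.2 CPM in uninjured CD31+ cells. Muscle fiber markers were lower in the injured libraries, at 148 to 180.2 against 338 to 375 CPM in MuSC and 2.66 to 13.4 against 133 to 382 CPM in MSC. Of 8 satellite cell markers 5 fell and 1 rose in MuSC, of 8 stromal markers 4 fell in MSC, and of 8 hematopoietic markers 4 rose in CD31+ cells. The part of these transcripts in the results was not tested, apart from the values given without 2 injured MuSC libraries and without injured CD45+ replicate 3.

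The genes lie at 7 sites in the mouse genome (positions from GENCODE vM21 on GRCm38, whole gene). Dlk1 (chr12:109452823-109463336), Meg3 (chr12:109541001-109571726), Rian (chr12:109603940-109661716) and Mirg (chr12:109729764-109749460) share the Dlk1-Dio3 domain, all on the plus strand. Dlk1 encodes a membrane protein related to Notch ligands and is expressed from the paternal copy. Meg3, Rian and Mirg are noncoding RNAs of the maternal copy and carry small nucleolar RNAs and microRNAs. H19 (chr7:142575529-142578143, minus strand) is a maternally expressed noncoding RNA next to the growth factor gene Igf2. The same chromosome holds Peg3 (chr7:6703892-6730431, minus strand), a paternally expressed zinc finger protein, and Ndn (chr7:62346569-62350262, plus strand), which encodes necdin, a paternally expressed growth suppressor of the MAGE family. Mest (chr6:30723547-30748465, plus strand) is paternally expressed and encodes a membrane protein with an alpha/beta hydrolase fold. Grb10 (chr11:11930508-12038683, minus strand) encodes an adaptor that dampens insulin and IGF signalling and is expressed from the maternal copy in most tissues. Plagl1 (chr10:13060504-13131694, plus strand) encodes a paternally expressed zinc finger transcription factor that slows the cell cycle.

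Several of these RNAs are hosts of microRNAs, which were not measured here. RefSeq places 14 microRNA hairpins with 26 mature sequences within Mirg, 3 hairpins within Rian and 1 each within Meg3, H19 and Mest. The H19 hairpin lies within an exon and the Mest hairpin lies in an intron. The sequences below (RefSeq, GRCm38.p6) are those carried by H19 and Mest and examples from the Dlk1-Dio3 domain, with the seed (bases 2 to 8) in capitals. The hosts H19, Mest, Meg3 and Rian had an injury effect that differed between populations. Of the mature sequences within Mirg, miR-453 and miR-496a-5p have the same seed.
miR-675-5p: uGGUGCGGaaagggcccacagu
miR-675-3p: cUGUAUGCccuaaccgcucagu
miR-335-5p: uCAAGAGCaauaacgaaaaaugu
miR-335-3p: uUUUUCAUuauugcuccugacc
miR-770-5p: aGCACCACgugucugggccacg
miR-370-3p: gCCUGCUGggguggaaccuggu
miR-134-5p: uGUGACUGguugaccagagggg
miR-410-3p: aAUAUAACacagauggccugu
miR-453: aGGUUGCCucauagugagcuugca
miR-496a-5p: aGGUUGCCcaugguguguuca

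Imprints are protected in the embryo by ZFP57, a zinc finger protein that binds the letters TGCCGC when their CG is methylated. RefSeq promoters were found for 9 of the genes. TGCCGC or its reverse complement GCGGCA occurred in the 250 bases before a start of Mest, Plagl1 and Meg3, and in 8.68% of 32851 promoters in the same window. Mest, Grb10 and Meg3 had more than 1 start and were searched at each, while the shares are per single promoter, so the units are unlike. The 2 matches before the second Mest start compare with 0.874% of promoters that hold 2 or more. They also fall in the window of the next Mest start, chr6:30737803-30738052. The 2 promoters shown are those of the genes with the largest injury effects, Meg3 in MuSC and Mest in MSC and CD31+ cells (plus strand, capitals mark the matches). The Meg3 promoter also holds the palindrome TGACGTCA of cAMP response elements, as does that of Peg3, against 1.55% of promoters. A match describes the letters in the window and says nothing of binding.
Mest, chr6:30737800-30738049: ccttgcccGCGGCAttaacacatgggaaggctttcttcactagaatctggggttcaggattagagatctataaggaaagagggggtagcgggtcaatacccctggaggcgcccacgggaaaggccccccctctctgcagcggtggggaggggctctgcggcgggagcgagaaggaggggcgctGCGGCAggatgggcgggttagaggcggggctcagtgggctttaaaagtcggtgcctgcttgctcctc
Meg3, chr12:109540746-109540995: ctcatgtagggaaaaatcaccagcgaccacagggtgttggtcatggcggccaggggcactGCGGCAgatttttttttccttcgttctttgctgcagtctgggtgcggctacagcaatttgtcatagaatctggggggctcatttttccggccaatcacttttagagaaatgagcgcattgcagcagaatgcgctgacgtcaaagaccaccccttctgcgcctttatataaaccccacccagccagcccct

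Most of these genes were RNAs of MuSC and MSC in uninjured muscle. Peg3 averaged 1204 ± 65.9 CPM in uninjured MuSC, 104 ± 16.8 in MSC, 12.6 ± 6.56 in CD31+ and 0.383 ± 0.437 in CD45+ cells (SD, n = 3 each). Meg3 averaged 1443 ± 142 CPM in MuSC, 378 ± 26.4 in MSC, 2.80 ± 2.04 in CD31+ and 0.754 ± 1.11 in CD45+ cells. Ndn had the other order, with 678 ± 39.2 CPM in MSC, 46.5 ± 10.2 in MuSC, 8.34 ± 3.62 in CD31+ and 2.39 ± 0.580 in CD45+ cells. Grb10 was the most even outside CD45+ cells, at 156 ± 12.2 CPM in MuSC, 107 ± 13.9 in MSC and 95.1 ± 18.9 in CD31+ cells, against 0.605 ± 0.332 in CD45+ cells.

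A population was taken as highest for a gene if all 3 of its differences from other populations passed (edgeR quasi-likelihood, adjusted p below 0.05). In uninjured muscle, 6 of the 10 genes were highest in MuSC (Meg3, Rian, Mirg, Peg3, Grb10 and Mest), as were 7.88% of all genes tested. Ndn was highest in MSC, where 9.09% of genes were. No member was highest in CD31+ cells (9.92% of genes) or CD45+ cells (13.7%). Against MSC alone, MuSC were higher for those 6 genes (17.4% of all genes) and lower for Ndn (23.3%). The log2 difference was 3.53 ± 0.32 (SE) for Peg3 (adjusted p = 2.35e-08) and 1.93 ± 0.24 for Meg3 (adjusted p = 1.34e-06). For Ndn it was -3.88 ± 0.28 (adjusted p = 3.51e-10). Neighbours in the order did not differ beyond their spread in MuSC and MSC for H19 (adjusted p = 0.935) and Plagl1 (adjusted p = 0.358), and in MSC and CD31+ cells for Grb10 (adjusted p = 0.495). At levels under 3 CPM, the same held for CD31+ and CD45+ cells with H19 (adjusted p = 0.265), Plagl1 (adjusted p = 0.142) and Mirg (adjusted p = 0.0697), and for every pair of neighbours with Dlk1 (adjusted p = 0.777 in MuSC and MSC, 0.157 in MSC and CD31+, and 0.416 in CD31+ and CD45+ cells). The lead of Mirg in MuSC was narrow in the test (adjusted p = 0.0413 against MSC, 0.00212 to 0.107 over the alternatives, lost without any MuSC library or MSC replicate 2 or 3).

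**Figure D1:**
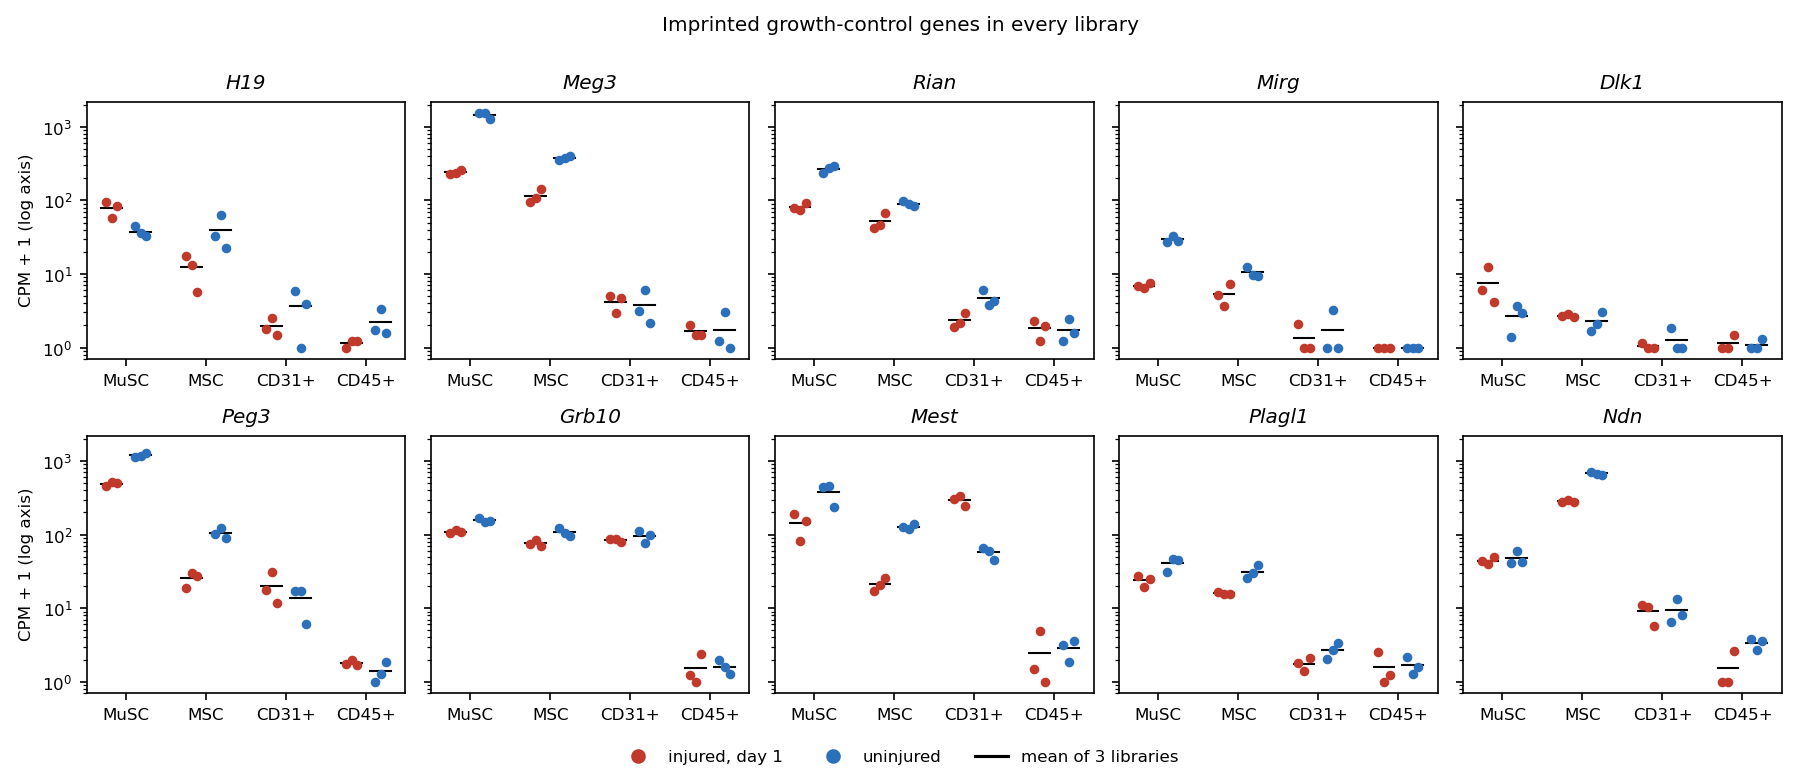
Level of each of the 10 genes in every library, as CPM + 1 on a log axis, by population; red points are injured, blue points uninjured, and lines are means of 3 libraries. Mest in CD31+ cells shows the injured points above the uninjured ones, at 242 to 339 against 44.8 to 65.0 CPM, while in MSC they lie below.

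Divided by exon length, the order of the genes within a population was different from that of the undivided CPM. The length joins the exons of all annotated transcripts of a gene, 11 for Meg3 (18.09 kilobases) and 1 for Ndn (3.69 kilobases). It can exceed the length of the RNA present, which lowers the value of genes with many transcripts. In uninjured MuSC, Mest had 95.5 ± 31.5, Peg3 90.35 ± 4.95 and Meg3 79.8 ± 7.83 CPM per kilobase of exon (SD, n = 3). The intervals of mean ± SD, though not the ranges of single libraries, overlap for all 3 genes. In uninjured MSC, Ndn led with 183 ± 10.6 CPM per kilobase, ahead of Mest with 32.2 ± 2.34. These levels per length were not tested between genes.

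In MuSC, 1 day of injury was accompanied by lower levels of most of these RNAs. Of the 10 genes, 6 fell (17.5% of all genes tested fell) and 1 rose (21.4% rose). In MSC, 8 of 10 fell (23.6% of genes) and none rose (18.3%). The ranges of the 2 conditions were apart, with no overlap, for 9 of the 10 genes in MuSC (49.5% of all genes) and for 9 in MSC (55% of all genes). In CD31+ cells 1 rose (14.1%) and 1 fell (9.3%), and in CD45+ cells none rose (16%) and 1 fell (18.5%). The 10 genes averaged 2.39 CPM or less in CD45+ cells, and Mirg had no counts there, so these calls say little of a response in them. The median log2 fold change of the 10 genes was -1.04 in MuSC, -1.19 in MSC, -0.51 in CD31+ and -0.14 in CD45+ cells, beside -0.04, -0.22, -0.04 and -0.12 over all genes tested. The medians in CD31+ and CD45+ cells include genes with very few counts, such as Dlk1 with 1 in injured and 4 in uninjured CD31+ cells. Meg3, Rian, Peg3, Grb10 and Mest fell in both MuSC and MSC, a pattern of 11.4% of all genes. Without the 2 injured MuSC libraries that carried Pdgfra, 3 genes fell in MuSC (Meg3, Rian and Peg3) and none rose, with the remaining injured library assumed to vary like the other groups. Without injured MSC replicate 1, and without uninjured MSC replicate 2, 5 genes fell in MSC.

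**Figure D2:**
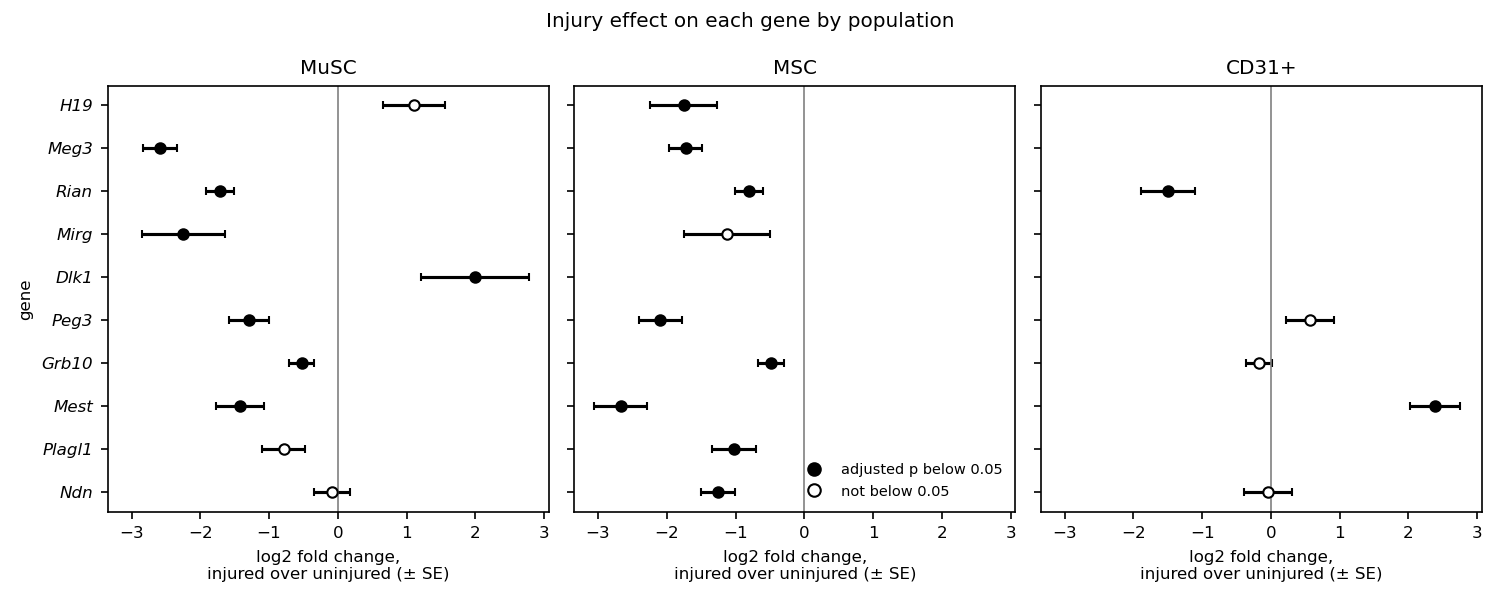
Log2 fold change of each gene, injured over uninjured, with its standard error, in MuSC, MSC and CD31+ cells; filled points passed the test and open points did not. Genes with means below 5 CPM in both groups are drawn only if they passed, and Mest is the gene whose filled points lie on both sides of 0.

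Among the 10 genes, the noncoding RNAs of the Dlk1-Dio3 domain had the largest falls in MuSC. Meg3 had 231, 233 and 255 CPM in injured MuSC, against 1521, 1528 and 1279 CPM in uninjured MuSC. The lowest uninjured library was well above the highest injured one (log2 fold change -2.59 ± 0.25 (SE), adjusted p = 4.79e-08). Rian had 76.9, 73.2 and 92.3 CPM in injured and 232, 277 and 289.6 CPM in uninjured MuSC (log2 fold change -1.72 ± 0.20 (SE), adjusted p = 2.95e-07). Mirg had 5.95, 5.46 and 6.49 CPM in injured and 26.5, 32.2 and 26.7 CPM in uninjured MuSC, a gap of several times in each library (log2 fold change -2.25 ± 0.61 (SE), adjusted p = 0.00613). Without the 2 libraries with Pdgfra the Mirg fold change was -2.40 on the log2 scale, close to its value with them, and the call was lost with a single injured library left (adjusted p over the alternatives 6.93e-06 to 0.111). Meg3 and Rian stood at like levels in the injured libraries with and without Pdgfra.

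The same RNAs were lower in injured MSC. Meg3 had 95.1, 107 and 141 CPM in injured and 355, 374 and 407 CPM in uninjured MSC (log2 fold change -1.73 ± 0.24 (SE), adjusted p = 7.42e-06). Rian had 41.7, 44.9 and 66.9 CPM in injured and 96.7, 88.7 and 82.4 CPM in uninjured MSC (log2 fold change -0.81 ± 0.20 (SE), adjusted p = 0.0025), a smaller gap whose call was lost without uninjured replicate 1 or injured replicate 1 (adjusted p over the alternatives 0.000111 to 0.0902). Mirg had 4.19, 2.65 and 6.29 CPM in injured and 11.4, 8.74 and 8.44 CPM in uninjured MSC, groups that did not overlap, and did not pass the test (log2 fold change -1.13 ± 0.62 (SE), adjusted p = 0.158). In CD31+ cells all 3 RNAs stood at or below about 5 CPM, where Rian fell with 0.923, 1.16 and 1.90 CPM in injured against 5.10, 2.82 and 3.24 CPM in uninjured cells (log2 fold change -1.50 ± 0.39 (SE), adjusted p = 0.0066; 0.000766 to 0.0931 over the alternatives, lost without uninjured replicate 1). Mirg had no count in any of the 6 CD45+ libraries.

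Relative to Meg3, Rian stood higher in injured cells. Counts of Rian per 100 counts of Meg3 were 33.3, 31.4 and 36.2 in injured MuSC and 15.3, 18.1 and 22.6 in uninjured MuSC. In MSC they were 43.8, 41.9 and 47.3 in injured and 27.3, 23.7 and 20.3 in uninjured libraries. The injured libraries were above the uninjured ones in both populations, without overlap (exact permutation test, two-sided, p = 0.1 in each, the smallest that 3 against 3 libraries allow; 0.133 adjusted over 4 such ratios). The means were 33.6 ± 2.40 against 18.7 ± 3.72 in MuSC and 44.4 ± 2.76 against 23.8 ± 3.50 in MSC (SD, n = 3). Meg3 and Mirg each overlap a gene model on the opposite strand, and Rian and Mirg overlap many small RNA genes on their own strand. The libraries do not mark strand, so the reads of such pairs cannot be told apart.

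**Figure D3:**
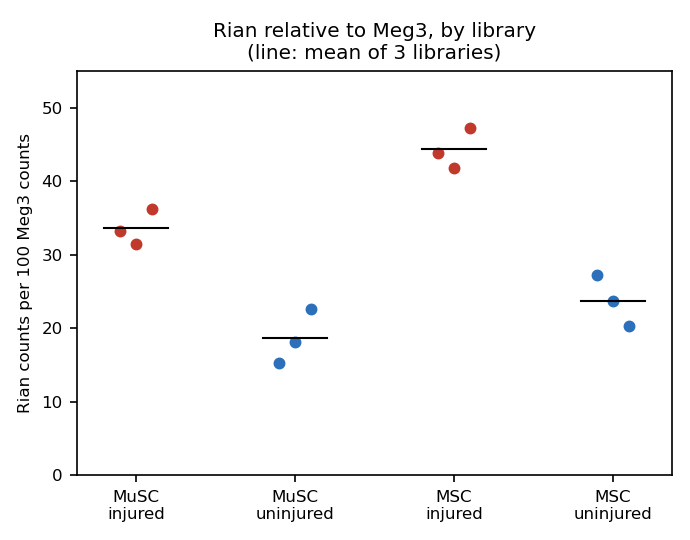
Counts of Rian per 100 counts of Meg3 in each MuSC and MSC library, with the mean of 3 libraries as a line. Injured libraries sit at 31.4 to 47.3 and uninjured ones at 15.3 to 27.3.

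The protein-coding genes of the domain differed in direction. Dlk1 had 5.06, 11.4 and 3.12 CPM in injured and 0.387, 2.71 and 1.96 CPM in uninjured MuSC, low counts with 1 library well above the others. It passed narrowly (log2 fold change 1.99 ± 0.79 (SE), adjusted p = 0.0481), and the call was lost in most alternatives (0.0255 to 0.412), among them without injured replicate 1 or 2 or uninjured replicate 1 or 3. In MSC, Dlk1 had 1.68, 1.82 and 1.62 CPM in injured and 0.670, 1.12 and 2.00 CPM in uninjured libraries. Rtl1 (chr12:109589193-109600330), a retrotransposon-derived gene needed in muscle development and placenta, had 18.7, 13.5 and 18.95 CPM in injured and 91.0, 95.9 and 53.0 CPM in uninjured MuSC (log2 fold change -2.22 ± 0.35 (SE), adjusted p = 1.68e-05). Rtl1 lies on the minus strand and Mir127 lies within it on the plus strand, so without strand its reads cannot be told apart from those of an antisense RNA of the maternal copy. Rtl1 had 8.11, 13.9 and 13.1 CPM in injured and 24.3, 23.7 and 23.99 CPM in uninjured MSC (log2 fold change -1.04 ± 0.35 (SE), adjusted p = 0.0206, 0.00322 to 0.209 over the alternatives, lost without any uninjured MSC library or injured replicate 1). Dio3 (chr12:110279068-110281097) encodes the deiodinase that inactivates thyroid hormone and lies at the far end of the domain. It went the other way in MSC, with 72.0, 26.7 and 35.2 CPM in injured and 2.51, 5.60 and 3.78 CPM in uninjured libraries (log2 fold change 3.50 ± 0.89 (SE), adjusted p = 0.0047; 0.000513 to 0.0881 over the alternatives, lost in DESeq2). In MuSC, Dio3 was at the limit of detection, with 0.149, 0.482 and 0.389 CPM in injured and 0, 0.678 and 0 CPM in uninjured libraries.

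**Figure D4:**
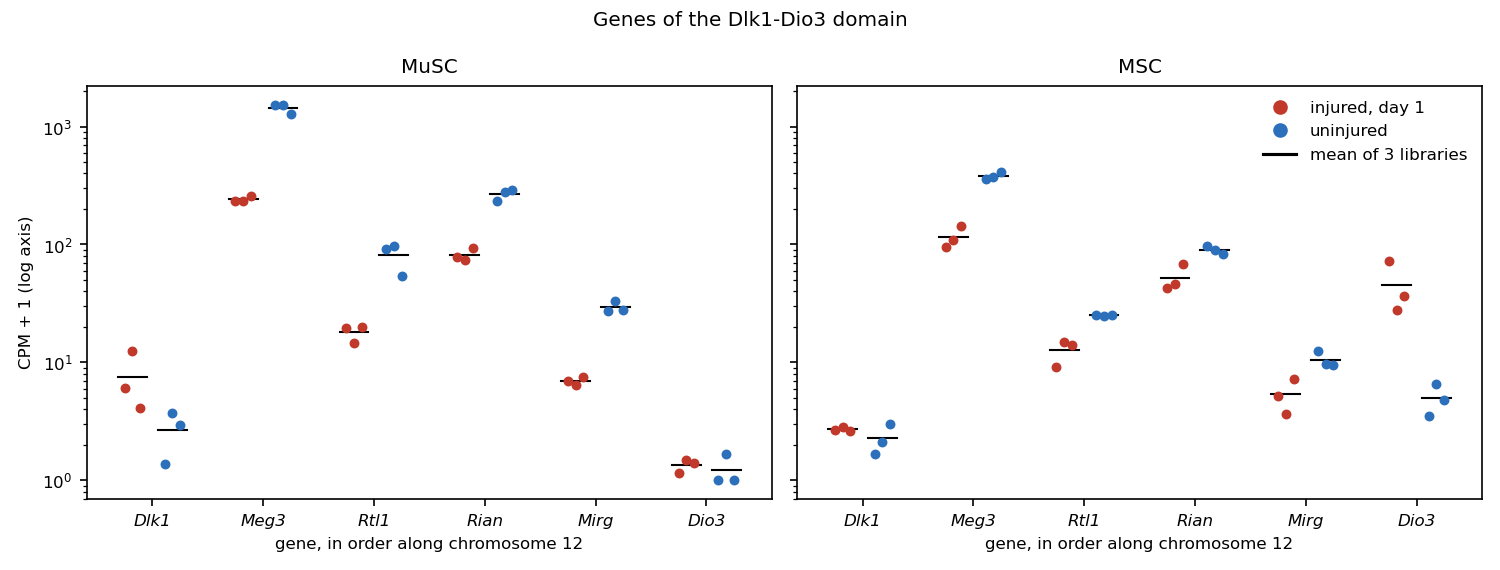
Genes of the Dlk1-Dio3 domain in chromosome order, as CPM + 1 on a log axis, for MuSC and MSC; red points are injured, blue points uninjured, and lines are means of 3 libraries. Meg3, Rtl1 and Rian are lower in injured cells of both populations, while Dio3 is higher in injured MSC.

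H19 moved differently in MuSC and MSC. It had 95.4, 57.2 and 84.0 CPM in injured and 43.4, 34.9 and 31.4 CPM in uninjured MuSC, groups that did not overlap. The difference did not pass (log2 fold change 1.11 ± 0.45 (SE), adjusted p = 0.0603, 0.000546 to 0.191 over the alternatives). In MSC it had 16.8, 12.4 and 4.67 CPM in injured and 32.2, 62.1 and 21.8 CPM in uninjured libraries, with uninjured replicate 2 well above the others. There it fell (log2 fold change -1.76 ± 0.48 (SE), adjusted p = 0.00568), a call lost without that replicate (0.00367 to 0.0943 over the alternatives). The difference between the injury effects, MuSC minus MSC, was 2.86 ± 0.66 (SE) on the log2 scale and passed (adjusted p = 0.00915, 0.0054 to 0.0663 over the alternatives). It was lost without uninjured MSC replicate 2 and without the 2 injured MuSC libraries with Pdgfra. H19 in the injured MuSC library with almost no Pdgfra stood at 95.4 CPM. H19 overlaps 2 gene models on the opposite strand. Igf2, the paternally expressed growth factor beside it, had 2.68, 0.803 and 1.95 CPM in injured and 4.26, 5.76 and 5.11 CPM in uninjured MuSC (adjusted p = 0.0532). Nctc1 (chr7:142544609-142558596), a noncoding RNA of the same locus known from muscle, fell in MuSC, with 35.9, 52.0 and 60.4 CPM in injured and 320.0, 209 and 239.5 CPM in uninjured libraries (log2 fold change -2.37 ± 0.29 (SE), adjusted p = 2.44e-06).

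Mest rose in endothelial cells and fell in both MuSC and MSC. In CD31+ cells it had 308, 339 and 242 CPM in injured and 65.0, 59.6 and 44.8 CPM in uninjured libraries. The groups were far apart (log2 fold change 2.39 ± 0.37 (SE), adjusted p = 7.85e-05). In MSC it had 15.9, 19.4 and 24.6 CPM in injured and 124, 119 and 137 CPM in uninjured libraries, again with no overlap (log2 fold change -2.67 ± 0.38 (SE), adjusted p = 1.53e-05). In MuSC it had 187, 80.9 and 154 CPM in injured and 440.1, 457 and 234 CPM in uninjured libraries, with a wide spread in each group (log2 fold change -1.42 ± 0.35 (SE), adjusted p = 0.00322, 6.44e-05 to 0.11 over the alternatives, lost without the 2 libraries with Pdgfra). A fall in MuSC and MSC together with a rise in CD31+ cells was seen in 0.252% of all genes tested, 41 genes. The effect in MSC minus that in CD31+ cells was -5.06 ± 0.53 (SE) on the log2 scale (adjusted p = 4.46e-06), and that in MuSC minus CD31+ cells was -3.80 ± 0.51 (adjusted p = 5.61e-05). In CD45+ cells Mest had 0.505, 3.92 and 0 CPM in injured and 2.14, 0.868 and 2.58 CPM in uninjured libraries. Mest overlaps the end of Copg2 on the other strand, which had 10.8, 18.2 and 15.4 CPM in injured and 9.35, 14.1 and 14.7 CPM in uninjured CD31+ cells. Copg2 was lower after injury where Mest was. It had 7.29, 8.83 and 10.3 CPM in injured and 25.2, 20.7 and 23.4 CPM in uninjured MuSC. In MSC it had 5.31, 6.13 and 7.55 CPM in injured and 18.1, 18.8 and 13.8 CPM in uninjured libraries. The part of shared reads in this was not tested. The hematopoietic sum was 249, 20.6 and 17.9 CPM in these injured CD31+ libraries, in the same order as the values of Mest above.

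Peg3, with Meg3 the member of highest CPM in uninjured MuSC, fell in MuSC and MSC. It had 459.5, 514 and 504 CPM in injured and 1149, 1185 and 1277 CPM in uninjured MuSC (log2 fold change -1.29 ± 0.29 (SE), adjusted p = 0.00139). In MSC it had 17.9, 29.3 and 26.1 CPM in injured and 103, 122 and 88.4 CPM in uninjured libraries, with no overlap in either population (log2 fold change -2.10 ± 0.31 (SE), adjusted p = 2.17e-05). In CD31+ cells it had 16.6, 30.1 and 10.8 CPM in injured and 16.4, 16.4 and 5.01 CPM in uninjured libraries, groups that overlapped (log2 fold change 0.57 ± 0.35 (SE), adjusted p = 0.277). Its neighbour Zim1 (chr7:6671269-6696450), a maternally expressed zinc finger gene, fell as well, with 82.7, 89.8 and 88.5 CPM in injured and 259, 264 and 244 CPM in uninjured MuSC (log2 fold change -1.55 ± 0.25 (SE), adjusted p = 3.48e-05).

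Ndn fell in MSC, the population where it was highest. It had 275, 297 and 276 CPM in injured and 719.9, 670.3 and 642 CPM in uninjured MSC, with little spread in either (log2 fold change -1.26 ± 0.25 (SE), adjusted p = 0.000297). In MuSC it had 42.7, 38.4 and 48.8 CPM in injured and 40.3, 58.3 and 40.8 CPM in uninjured libraries, groups that overlapped (log2 fold change -0.09 ± 0.26 (SE), adjusted p = 0.836). The effect in MuSC minus that in MSC was 1.17 ± 0.36 (SE) on the log2 scale (adjusted p = 0.0481, 0.0021 to 0.435 over the alternatives, lost without any single MuSC or MSC library except uninjured MuSC replicate 2). In CD45+ cells Ndn passed on 7 counts in injured and 27 in uninjured libraries (log2 fold change -2.04 ± 0.74 (SE), adjusted p = 0.0379), a call lost without injured replicate 1 or 2 or uninjured replicate 1 or 3 (0.000594 to 0.151 over the alternatives). All 7 injured counts were in replicate 3, the library with Pdgfra and Dcn, and without it Ndn had 0 counts in the injured libraries and passed (adjusted p = 0.000594). Peg12, a neighbour of Ndn, rose in MSC, with 45.7, 26.0 and 35.9 CPM in injured and 11.4, 7.17 and 12.9 CPM in uninjured libraries (log2 fold change 1.77 ± 0.35 (SE), adjusted p = 0.000269). Peg12 was also higher in injured MuSC, without overlap, at 168, 111 and 120 CPM against 64.3, 87.8 and 69.5 CPM in uninjured MuSC.

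The differences of Grb10 were small. It had 105, 113 and 107 CPM in injured and 169.6, 147 and 150.2 CPM in uninjured MuSC (log2 fold change -0.52 ± 0.18 (SE), adjusted p = 0.0261). In MSC it had 73.8, 84.5 and 70.1 CPM in injured and 122, 104 and 94.4 CPM in uninjured libraries (log2 fold change -0.49 ± 0.18 (SE), adjusted p = 0.0375). Both calls were lost in many alternatives (0.000127 to 0.109 in MuSC and 0.000573 to 0.445 in MSC), among them without any MuSC library but uninjured replicate 2 and without any MSC library but injured replicate 2. Plagl1 had 15.7, 14.8 and 14.4 CPM in injured and 24.8, 29.1 and 37.3 CPM in uninjured MSC (log2 fold change -1.02 ± 0.32 (SE), adjusted p = 0.0132; 0.000418 to 0.146 over the alternatives, lost without uninjured replicate 2 or 3 or injured replicate 1). In MuSC it had 26.8, 18.3 and 23.9 CPM in injured and 30.0, 45.8 and 43.8 CPM in uninjured libraries and just missed the threshold (log2 fold change -0.79 ± 0.32 (SE), adjusted p = 0.0516; 0.00492 to 0.333 over the alternatives).

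After injury the order of the populations was different for some genes. H19, Meg3, Rian and Peg3 were highest in injured MuSC (8.63% of all genes), Ndn in injured MSC (5.75%) and Mest in injured CD31+ cells (10.8%). No member was highest in injured CD45+ cells (15.4%). For Mest the log2 difference of MuSC from CD31+ cells was -1.07 ± 0.35 (SE, adjusted p = 0.0138, 0.00845 to 0.276 over the alternatives), lost without injured CD31+ replicate 2 or injured MuSC replicate 2. Injured MuSC and MSC did not differ beyond their spread for Mirg (adjusted p = 0.631), Plagl1 (adjusted p = 0.145) and Dlk1 (adjusted p = 0.0541), nor did MSC and CD31+ cells for Peg3 (adjusted p = 0.369). Grb10 did not differ between MuSC and CD31+ cells (adjusted p = 0.101) or between MSC and CD31+ cells (adjusted p = 0.517) beyond the spread. At levels under 2 CPM, injured CD31+ and CD45+ cells did not differ beyond theirs for Dlk1, H19, Mirg, Plagl1 and Rian (adjusted p = 0.556, 0.201, 0.131, 0.645 and 0.288 in that order). The injured and uninjured comparisons share no library with each other, but the comparisons within each set do.

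Whether injury acted differently on the populations was tested with a single F test per gene over the 4 populations. Of the 10 genes, 6 passed (Mest, Meg3, Peg3, H19, Ndn and Rian), beside 35.9% of all genes tested. In CD45+ cells the 10 genes averaged 2.39 CPM or less, and in CD31+ cells H19, Meg3 and Rian averaged 3.72 CPM or less. For those genes and populations the test sets changes elsewhere against values that rest on few counts. Between pairs of populations the effects differed for 3 of the 10 genes in MuSC against MSC (H19, Ndn and Rian; 7.73% of all genes), and for Meg3, Mest and Peg3 both in MuSC against CD31+ cells (12.3%) and in MSC against CD31+ cells (12.6%). These comparisons share libraries. For Meg3 the effect in MuSC minus that in CD31+ cells was -2.83 ± 0.50 (SE) on the log2 scale (adjusted p = 0.000644), with Meg3 near 3 CPM in CD31+ cells. For Peg3 the effect in MSC minus that in CD31+ cells was -2.66 ± 0.47 (adjusted p = 0.000789), and in MuSC minus CD31+ cells -1.86 ± 0.45 (adjusted p = 0.0098). Rian in MuSC minus MSC was -0.91 ± 0.28 (adjusted p = 0.049, 0.0035 to 0.21 over the alternatives, lost without injured MSC replicate 2 or 3, any uninjured MuSC library, or injured MuSC replicate 1 or 2). Between MuSC and MSC, the effects on Meg3 differed by -0.86 ± 0.33 (adjusted p = 0.133) and those on Grb10 by -0.04 ± 0.26 (adjusted p = 1), which did not pass.

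Neighbours of these loci and other imprinted genes were taken from 2 lists, whose counts stand beside those over all genes tested. Of all genes, 17.5% fell and 21.4% rose in MuSC, and 23.6% and 18.3% in MSC. These shares were 9.3% and 14.1% in CD31+ cells, and 18.5% and 16% in CD45+ cells. The median over all genes was -0.04, -0.22, -0.04 and -0.12 in that order. The first list held 37 genes taken as neighbours of these loci, and whether each is imprinted in these cells was not measured. Nap1l5 (chr6:58905233-58907076) was listed with Mest for its chromosome and lies far from it. Nap1l5 had 6.55, 11.9 and 8.31 CPM in injured and 52.5, 30.5 and 55.8 CPM in uninjured MuSC. Of the 37 genes, 31 were in the table and 21 were tested. In MuSC 7 of them fell and 1 rose, in MSC 9 fell and 2 rose, in CD31+ cells 1 fell, and in CD45+ cells 1 rose. The last was Dio3, with 0, 1 and 45 counts in the injured CD45+ libraries and 0 in each uninjured one, so that nearly all of it lay in injured replicate 3, the library with Pdgfra and Dcn. Their median log2 fold change was -0.82 in MuSC, -1.27 in MSC, -0.58 in CD31+ and -0.68 in CD45+ cells. Of 40 other imprinted genes tested, 16 fell and 7 rose in MuSC, 17 fell and 4 rose in MSC, 9 fell and 6 rose in CD31+ cells, and 17 fell and 8 rose in CD45+ cells. The median of these was -0.53 in MuSC, -0.53 in MSC, -0.36 in CD31+ and -0.81 in CD45+ cells. Igf2r, the receptor that clears Igf2, averaged 53.9 ± 4.68 CPM in injured and 125 ± 13.03 CPM in uninjured MuSC (SD, n = 3; log2 fold change -1.21 ± 0.22 (SE), adjusted p = 8.63e-05). The cyclin-dependent kinase inhibitor Cdkn1c averaged 1.66 ± 1.01 CPM in injured and 16.0 ± 4.47 CPM in uninjured MSC (log2 fold change -3.22 ± 0.57 (SE), adjusted p = 8.58e-05). Of 15 genes of the imprinted gene network described around Plagl1 and H19, 5 of them (Igf2, Igf2r, Cdkn1c, Gnas and Dcn) also on the lists above and 4 (Col1a1, Col3a1, Dcn and Lum) among the stromal markers, 3 fell and 3 rose in MuSC, 9 fell and none rose in MSC, 3 fell in CD31+ cells, and 2 fell and 1 rose in CD45+ cells, with medians of -0.61, -1.52, -0.50 and 0.28 in that order.

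The genes with the pattern most like each member were sought among 11629 genes, by Pearson's r of log2(CPM + 1) over the 8 group means. The nearest to Meg3 were Gli2 (r = 0.995), Rtl1 (r = 0.995), Rian (r = 0.994), and those to Rian were Hoxc10 (r = 0.995), Plagl1 (r = 0.995), Meg3 (r = 0.994). For Mirg they were Slc25a29 (r = 0.995), Rtl1 (r = 0.993), Dnaic2 (r = 0.992). For Plagl1 they were Kcns3 (r = 0.998), Hoxc10 (r = 0.998), Robo1 (r = 0.996). H19 was nearest to Dmpk (r = 0.981), Irs1 (r = 0.977), B3galt1 (r = 0.976). Peg3 was nearest to Sirt4 (r = 0.987), Fzd3 (r = 0.984), Gbf1 (r = 0.983). For Grb10 the list was Jam3 (r = 0.995), Nfib (r = 0.995), Yap1 (r = 0.994), for Ndn Pla2r1 (r = 0.993), Abcd3 (r = 0.991), Zfp354c (r = 0.988) and for Mest AC170188.1 (r = 0.983), Vwa1 (r = 0.973), Bcorl1 (r = 0.971). Dlk1 had a mean under 10 CPM in every group and was not compared. The 8 groups share libraries across all genes, and r over them is a description without a test. Over the 24 single libraries the lists were different, with 0 to 2 of the 3 genes shared. Sirt4 then had r = 0.822 with Peg3, whose nearest genes were Dag1, Fxyd6 and Ndrg2. Likewise Slc25a29 had r = 0.894 with Mirg, Abcd3 r = 0.885 with Ndn and Bcorl1 r = 0.842 with Mest.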

How the data were processed

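RNA from about 1000 sorted cells per library was copied from an oligo(dT) primer, amplified by PCR, tagged with Nextera XT and sequenced as paired 25-base reads, per the labels' protocols, with no strand or molecule tags. The authors deposited raw counts per gene symbol. STAR 2.5.4, featureCounts and mm10 are named in the submitters' processing notes; settings of the counter were not found in them, so values of overlapping genes are uncertain.

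The counts were fitted with edgeR 4.0.16 (R 4.3.3): its filter on low counts kept 16263 genes, libraries were scaled by TMM, and 1 model with 8 group means was fitted to 24 libraries (16 residual degrees of freedom). Quasi-likelihood tests were adjusted by Benjamini-Hochberg over all genes tested, and adjusted p below 0.05 passed. SE is approximate and was taken from each log2 fold change and its F statistic. The script was tested on simulated data. Alternatives were RLE scaling, no filter, DESeq2 1.42.0, a replicate block, each population alone, and leaving out single libraries; leaving out both injured MuSC libraries with Pdgfra was added after the data had been seen. Named were the 10 members, some of their neighbours, Pdgfra and the 3 most similar genes per member. Only part of the 21 neighbours tested are named, and several of these passed after injury. Igf2r, Cdkn1c and the imprint regulators were picked from their lists after their values were seen. The members and lists were chosen with earlier results of these data known.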

Additional observations from a re-analysis of the deposited data

Results flagged for a closer look

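For 6 of the 10 genes the effect of injury differed between the 4 populations in edgeR's F test. All 10 averaged 2.39 CPM or less in CD45+ cells, where a response could hardly be measured. For Mest the adjusted p was 4.39e-06 (6.02e-20 to 5.09e-05 over the alternatives), with a rise in CD31+ cells in 3 of 3 libraries and falls in MuSC and MSC. For Meg3 it was 0.000847 (1.62e-11 to 0.00651) and for Peg3 0.000934 (1.32e-07 to 0.00566), both lower in MuSC and MSC. For H19 it was 0.0063 (0.00139 to 0.0364). Ndn passed at 0.0177 (9.93e-06 to 0.119), lost without injured MSC replicate 1, any uninjured MSC library, uninjured CD31+ replicate 1, injured CD45+ replicate 1 or 2, or uninjured CD45+ replicate 3, and without the 2 injured MuSC libraries with Pdgfra. Rian passed at 0.0267 (0.000742 to 0.066), lost without injured MSC replicate 3, injured MuSC replicate 1 or 2, or uninjured MuSC replicate 2 or 3.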

How the results depend on the processing

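Of 569 values of single genes after injury under other settings, 505 kept their direction and side of the threshold, 52 lost a call, 7 gained one and 5 changed sign. This covers genes with a mean of at least 5 CPM in a group compared or with a passing test, a limit chosen after the alternatives had been seen; 63 comparisons of genes below it, none of them passing, were left out, and of their 875 values 60 changed sign, in 34 comparisons. The gene that rose in MuSC (1) became 0 with RLE, DESeq2, no filter or without the 2 injured libraries with Pdgfra, 2 with the 6 MuSC libraries alone, and 0 to 1 without single libraries. The 6 that fell in MuSC were 3 without those 2 libraries, and the 8 in MSC were 5 to 8 without single libraries. The gene that fell in CD31+ cells was 0 with those 6 libraries alone and 0 to 2 without single libraries, and that in CD45+ cells 0 and 0 to 1. Of the injured populations, MuSC was highest for 4 genes, 2 without the libraries with Pdgfra, and CD31+ for 1, 0 without them or with no filter, and 0 to 1 without single libraries. Differences near 0 changed sign without single libraries: after injury Ndn in MuSC (-0.17 to 0.10) and in CD31+ cells (-0.28 to 0.36, and 0.121 with no filter); uninjured H19 in MuSC minus MSC (-0.23 to 0.66) and Grb10 in MSC minus CD31+ (-0.0973 to 0.20); and the difference in injury effect of Grb10 (-0.44 to 0.047) and Plagl1 (-0.24 to 0.38) in MuSC minus MSC and Ndn in MuSC minus CD31+ (-0.59 to 0.16). The causes were not tested.

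With RLE the median gene in CD31+ cells moved to a log2 fold change of -0.14, against -0.04 with TMM. Among all genes, 2219 rose and 1807 fell in MuSC without the libraries with Pdgfra (3477 and 2841 with them), 2258 fell in MSC without injured replicate 1 (3831 with it), and 2334 fell in CD31+ cells in DESeq2 and 1007 with no filter (1512). Same-numbered libraries varied together weakly at most (r of deviations -0.124 to 0.183, with all 3 above 0.1 in 0 of 28 pairs of groups). In some pairs of groups of 1 condition, each of the 3 libraries was closest to the one with its number. Examples are injured MuSC and CD45+ cells (r = 0.0476 to 0.183) and uninjured MSC and CD31+ cells (r = 0.0321 to 0.102). The replicate block shares its numbers across conditions and does not model a link within 1 condition, which was not tested. With the replicate block H19 in MuSC passed (adjusted p = 0.0452) and Dlk1 did not (0.0626), and the lead of Mirg in MuSC over MSC (0.0599) and the MuSC minus MSC differences of Ndn (0.0578) and Rian (0.0557) were lost. List counts moved by over 1.5 times in some settings, among them other imprinted genes lower in MSC (17, and 10 without uninjured or injured replicate 1). Levels under 1.02 CPM can rest on 3 or fewer counts. PCR copies were counted as reads.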

Other observations

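Of 16 genes that set, keep or read imprints, 15 were tested. After injury 7 of these rose in MuSC and 4 fell. MSC had 4 that rose and 5 that fell, CD31+ cells 2 and 4, and CD45+ cells 2 and 3. Among all genes tested, 21.4% rose and 17.5% fell in MuSC, 18.3% and 23.6% in MSC, 14.1% and 9.3% in CD31+ cells, and 16% and 18.5% in CD45+ cells. The median log2 fold change of the 15 genes was 0.40 in MuSC, 0.16 in MSC, -0.15 in CD31+ and -0.22 in CD45+ cells. Uhrf1, which brings the maintenance methyltransferase to newly copied DNA, had 248, 214 and 218 CPM in injured and 11.4, 9.49 and 2.55 CPM in uninjured MuSC (log2 fold change 4.88 ± 0.46 (SE), adjusted p = 5.79e-08). In MSC it had 183, 104 and 143 CPM in injured and 1.68, 2.02 and 0.666 CPM in uninjured libraries (log2 fold change 6.58 ± 0.55 (SE), adjusted p = 1.07e-08). The maintenance methyltransferase Dnmt1 had 146, 144 and 132 CPM in injured and 14.3, 20.3 and 22.6 CPM in uninjured MuSC (log2 fold change 2.89 ± 0.27 (SE), adjusted p = 1.08e-08). Tet2, an enzyme that oxidises methylcytosine, had 41.8, 37.7 and 35.8 CPM in injured and 108, 89.1 and 97.2 CPM in uninjured MuSC (log2 fold change -1.35 ± 0.16 (SE), adjusted p = 2.31e-07). Uhrf1 and Dnmt1 are also known as genes of dividing cells. DNA methylation was not measured.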
